A study of Mus musculus with 3 samples.

Results

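The genes described here are 8 very large mouse genes: Wwox, Fhit, Macrod2, Immp2l, Dab1, Magi2, Csmd1 and Lrp1b. They were picked by name, with their peak counts in these lists already known and Wwox picked for its many Seh1 peaks, so those counts are given as a description and not tested. A peak belonged to one of the genes when the authors' annotation named that gene as the one with the nearest transcription start site, a rule that took 31 of 16113 Seh1 peaks (0.192%) and 13 of 5314 IgG peaks (0.245%). The 8 genes are 8 of 21779 protein-coding genes in the reference table and span 11.8 Mb together.

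The peaks came from chromatin immunoprecipitation and sequencing (ChIP-seq) of wild-type mouse neural stem cells, cultured from cortex at postnatal day 0 in growth medium with EGF and bFGF at 20 ng/ml each. All libraries were from cells fixed with 1% formaldehyde for 10 min. One library was an immunoprecipitation for Seh1, a nucleoporin of the nuclear pore scaffold, and the other was made with IgG, which has no chromatin target and serves as background. An input library of unprecipitated chromatin makes up the remaining sample and has no values of its own here. With 1 library per group there is no replicate error, and read depth behind the peaks is unknown, so a longer list can reflect deeper sequencing. Peak lists carry no expression values, so the labelled cell type could not be checked against its markers.

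Very large genes take long to transcribe and are often copied late in S phase from few replication origins. Many lie at common fragile sites, stretches of chromosome that break when replication is slowed, and long genes active in neural progenitors are known for recurrent DNA breaks. Wwox (a WW-domain oxidoreductase and candidate tumour suppressor) and Fhit (a diadenosine polyphosphate hydrolase) are the best known fragile-site genes. Macrod2 encodes a hydrolase that removes ADP-ribose from proteins, and Immp2l encodes a subunit of the inner mitochondrial membrane peptidase. Dab1 is the adaptor that relays Reelin signals during cortical layering, and Magi2 is a synaptic scaffold. Csmd1, a membrane protein with CUB and sushi domains, and Lrp1b, an endocytic receptor of the LDL receptor family, act at the cell surface.

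By the nearest start site, 7 of the 8 genes had a Seh1 peak, compared with 31.9% of all protein-coding genes and 78% of the 227 that are at least 500 kb long. An IgG peak was given to 6 of the 8, compared with 11.3% of all protein-coding genes and 67% of the large ones. The counts of Seh1 peaks were 13 for Wwox, 5 for Csmd1, 5 for Dab1, 4 for Magi2, 2 for Immp2l, 1 for Fhit, 1 for Lrp1b and 0 for Macrod2. The counts of IgG peaks were 5 for Csmd1, 2 each for Fhit, Lrp1b and Dab1, 1 each for Wwox and Immp2l, and 0 for Macrod2 and Magi2. The lists differed most in Wwox, with 13 against 1. Magi2 had 4 against 0 and Dab1 5 against 2, whereas Csmd1 had 5 in each.

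The nearest start site is a poor guide in genes of this size, because the far end of the gene can lie closer to the start of a neighbour. When peaks were instead counted by whether their centre lay between the ends of the RefSeq gene, the 8 genes held 49 Seh1 and 15 IgG peaks. Of the 49 Seh1 peaks, 21 had been given to another gene, and 3 of the 31 that carried a member's name lay outside that gene. For IgG, 10 of the 15 inside had been given elsewhere and 8 of the 13 with a member's name lay outside. All 8 genes then held a Seh1 peak (19.5% of all protein-coding genes and 82.8% of the large ones did), and 7 of 8 held an IgG peak (6.26% and 72.7%).

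**Figure D1:**
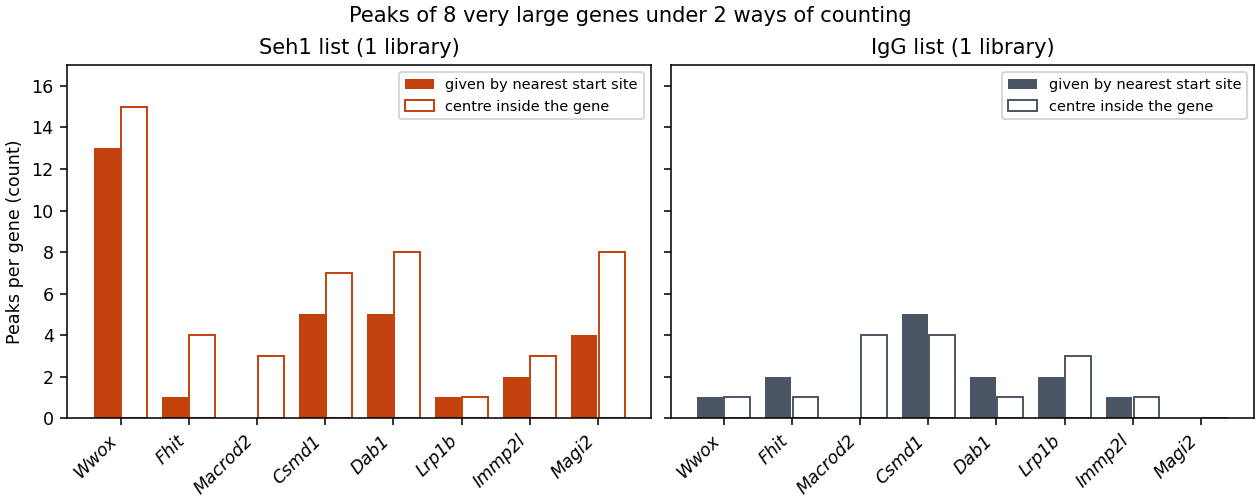
Number of Seh1 (left) and IgG (right) peaks per gene, by the authors' nearest start site (filled bars) and by peak centre inside the gene (open bars). Macrod2 goes from 0 to 3 Seh1 and from 0 to 4 IgG peaks, and Magi2 from 4 to 8 Seh1 peaks, while Wwox goes from 13 to 15.

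Macrod2 changed most in kind: it was named by no peak in either list, yet 3 Seh1 and 4 IgG peaks lay in its introns. These had been given to Flrt3, an adhesion molecule gene nested inside Macrod2, and to Kif16b, a kinesin gene beyond its end. In Magi2, 4 Seh1 peaks near the 3′ end carried the name of Phtf2. In Dab1, 4 carried the name of C8b, a complement gene, and in Csmd1 3 Seh1 and 2 IgG peaks carried that of the nested microRNA gene Mir3106. The nested Fhitos and Mnd1-ps took 1 and 2 Seh1 peaks of Fhit, the nested Lrrn3 took 2 Seh1 and 1 IgG peak of Immp2l, the nested Mir6336 took all 3 IgG peaks of Lrp1b, and Maf, a leucine-zipper transcription factor gene, took 2 Seh1 peaks of Wwox. Conversely, 1 Seh1 and 1 IgG peak named Immp2l lay 220 and 264 kb upstream of it, in introns 36 and 26 of Dock4. Values from here on are for peaks inside the genes unless stated.

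**Figure D2:**
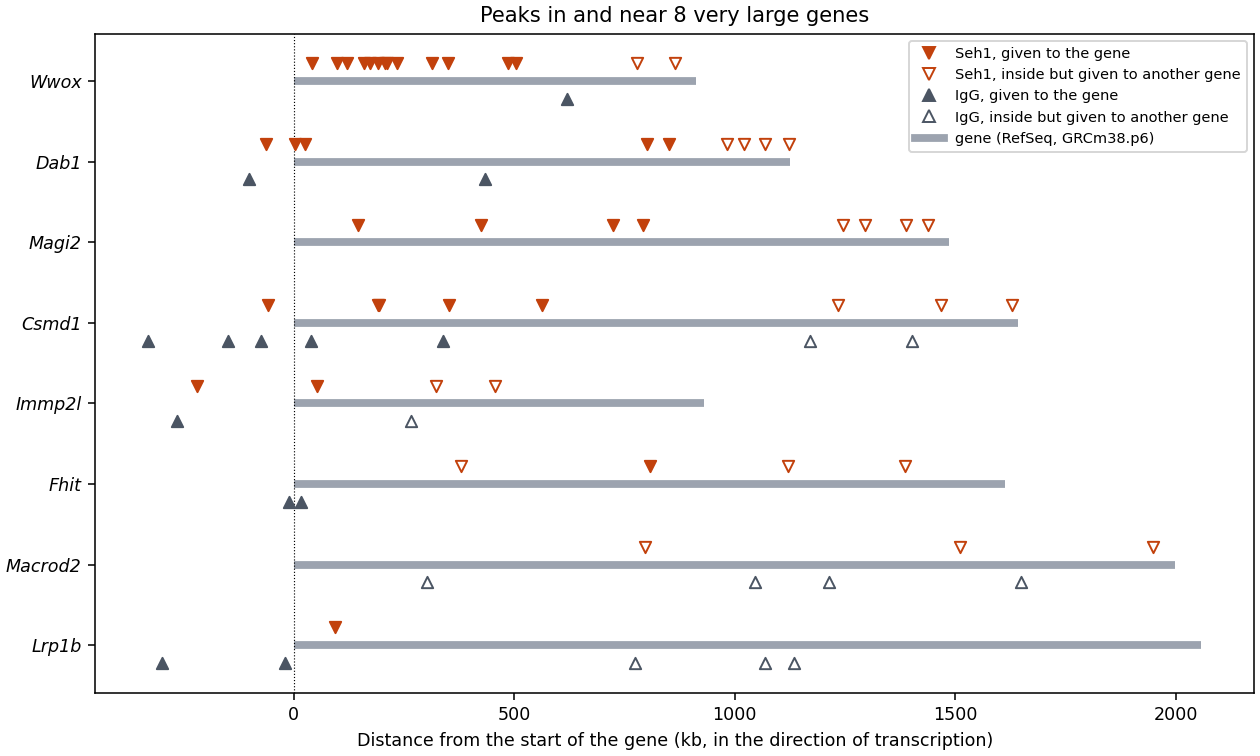
Peak centres along each gene, in kb from the gene's start, with Seh1 above and IgG below the grey bar that marks the gene; filled symbols are peaks given to the gene and open symbols are peaks inside it that were given to another gene. Wwox has 15 Seh1 peaks inside it, most of them toward its start, and the Seh1 peaks of Fhit and Macrod2 are mostly open symbols.

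Wwox spans 913 kb of the plus strand of chromosome 8 (114439635 to 115352712, mm10) and held 15 Seh1 peaks, or 16.4 per Mb (95% exact Poisson interval 9.19 to 27.1), and 1 IgG peak, or 1.10 per Mb (0.0277 to 6.10). Of all 21779 protein-coding genes, 1 held more Seh1 peaks, and of the 227 large genes 3 had more per Mb. For IgG, 146 of the large genes had more peaks per Mb than Wwox, but its count of 1 equals the median of the other 219. All intervals here cover counting error only.

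The Seh1 peaks of Wwox were unevenly spread. The first lay 40.6 kb from the start in intron 4 of 8, in a B4A element. Intron 5 held 8 peaks, at 98.4, 120, 159, 172, 191, 208, 213 and 235 kb and thus within 136 kb. Among the 20 large genes with at least 8 Seh1 peaks, this was the shortest stretch to hold 8. The next were Slit3, an axon guidance ligand gene, with 161 kb and Sdk1, a cell adhesion gene, with 186 kb. That measure was chosen after the values were seen. Intron 8 held 6 further peaks, at 314, 349, 486, 504, 778 and 864 kb, and the single IgG peak lay in the same intron at 620 kb. With the gene divided into 4 equal parts from its start, the Seh1 counts were 8, 3, 2 and 2.

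**Figure D3:**
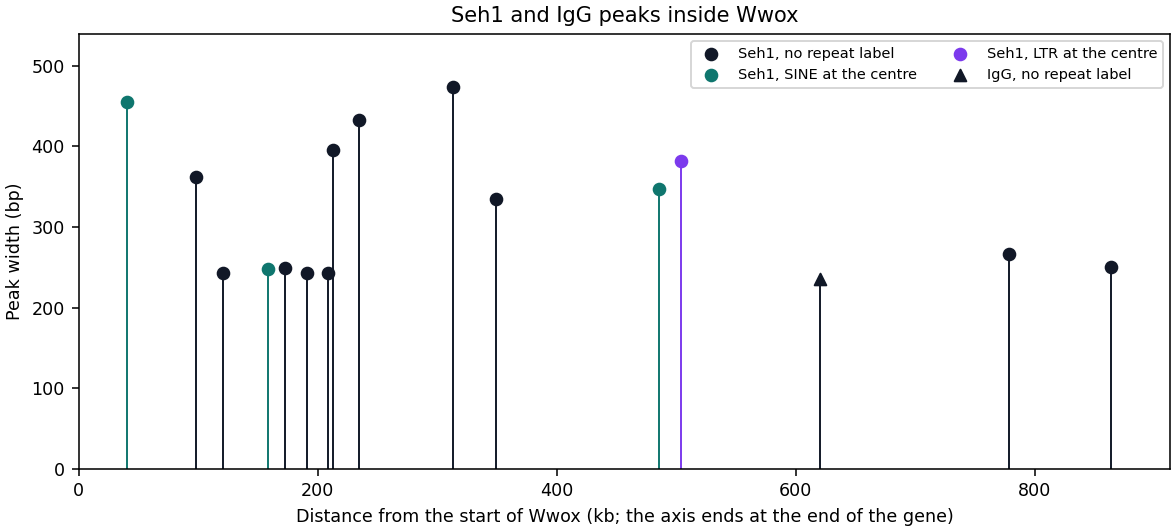
Width in bp of each peak inside Wwox against its distance in kb from the start of the gene; circles are Seh1 and the triangle is IgG, and colour gives the repeat class at the peak centre. Of the 15 Seh1 peaks 8 lie between 98.4 and 235 kb, and 11 carry no repeat label.

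Width is the only size measure in these lists. The Seh1 peaks of Wwox were 243 to 474 bp wide, with a median of 335 bp, against a median of 266 bp over all Seh1 peaks and 261 bp over those inside the other large genes, and 9 of the 15 were wider than the list's median. Of the 15, 3 (20%, 95% exact binomial interval 4.33 to 48.1%) had the minimum width of 243 bp, against 27.2% of the list, and the interval includes that share. The widest, 474 bp from 114752980 to 114753453 in intron 8, exceeded 96.1% of Seh1 peaks. The IgG peak had the minimum IgG width of 236 bp. Repeats were at the centre of 4 of the 15 (26.7%, 7.79 to 55.1%), against 39.8% of the list, with B4A at 2, B1_Mur4 at 1 and MTB_Mm at 1. The B4 family was at 2.46% of all Seh1 peaks, which lies inside the interval for the 2 of 15 in Wwox (13.3%, 1.66 to 40.5%). No peak of Wwox was in a LINE (0 of 15, which allows up to 20% when a count of 0 is read as at most 3), and 10.6% of the list was. The LINE, B4 and any-repeat shares of Wwox thus could not be told from those of the list.

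Fhit, on the minus strand of chromosome 14 (9550092 to 11162061, 1612 kb), is larger than Wwox but held only 4 Seh1 peaks, or 2.48 per Mb (0.676 to 6.35), and 1 IgG peak, or 0.620 per Mb. The Seh1 peaks lay at 380, 808, 1120 and 1390 kb from the start. An Lx LINE was at the centre of the last and the ERVK element RLTR34C_MM at the one before it. The IgG peak was close to the start, at 17.2 kb in intron 1, in an L1_Mus3 element, and a further IgG peak given to Fhit lay 10.8 kb upstream.

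Macrod2 spans 1998 kb of chromosome 2 (140395303 to 142392966) and had 1.5 Seh1 peaks per Mb (0.310 to 4.39) and 2 IgG peaks per Mb (0.546 to 5.13). Its Seh1 peaks lay in introns 5, 8 and 16 of 18, at 796, 1510 and 1950 kb. The peak in intron 8 was in a young L1Md_T LINE and that in intron 16 in RMER1A. Immp2l spans 932 kb of chromosome 12 (41024061 to 41955588), close to Wwox in length, and held 3 Seh1 peaks (3.22 per Mb, 0.664 to 9.41) and 1 IgG peak (1.07 per Mb). They lay at 52.4, 324 and 456 kb, all in the part before the midpoint. The last of these is also inside intron 1 of the nested Lrrn3, and the first 2 were in an MTA_Mm-int and an RMER1B element.

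Dab1 spans 1125 kb of chromosome 4 (103619500 to 104744844) and ranked next after Wwox among the 8, with 8 Seh1 peaks, or 7.11 per Mb (3.07 to 14.0), and 1 IgG peak, or 0.889 per Mb. With the gene divided into 4 equal parts, its Seh1 counts were 2, 0, 1 and 5. One lay 2.28 kb from the start in intron 1, the closest that any peak named for a member came to a start site, and another at 26.2 kb. No Seh1 peak then lay in the next 774 kb, a stretch that held the IgG peak at 434 kb. After it, 6 Seh1 peaks followed at 800, 852, 983, 1020, 1070 and 1120 kb. Those at 800 and 852 kb were in intron 1 of a shorter Dab1 transcript. They lay 52.1 and 104 kb from the start site that the authors' annotation took as nearest. The 553 bp peak at 852 kb (104471028 to 104471580) was the widest of all 49 and exceeded 98.5% of the Seh1 list. The last 2 were in exons 9 and 16 of 16 of the non-coding Dab1 transcript. Only the peak at 26.2 kb carried a repeat label, MTA_Mm-int, and the 2 in exons could not carry one.

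Magi2 spans 1485 kb of chromosome 5 (19219387 to 20704792) and held 8 Seh1 peaks, or 5.39 per Mb (2.33 to 10.6). Its IgG count of 0, read as at most 3 peaks, allows up to 2.02 per Mb. The Seh1 peaks were at 146, 424, 724 and 792 kb, and then at 1250, 1290, 1390 and 1440 kb. The first 4 all lay in a repeat, namely the simple repeat (CTCTG)n, RMER13B, Lx3B and RLTR26_Mus. Of the 4 toward the 3′ end only 1 did, PB1D10. The exon peak among them could carry no repeat label. The peak at 1250 kb (20465572 to 20466078) was in exon 9 of 21, the only peak of the 8 genes in the authors' exon class, and at 507 bp it exceeded 97.4% of the list.

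Csmd1, on the minus strand of chromosome 8 (15892538 to 17535385, 1643 kb), held 7 Seh1 peaks, or 4.26 per Mb (1.71 to 8.78), and 4 IgG peaks, or 2.43 per Mb (0.663 to 6.23). It was the gene where the lists came closest together: a Seh1 peak in an Lx LINE at 352 kb and an IgG peak in L1Md_A at 339 kb lay 12.8 kb apart in intron 2. All 4 IgG peaks of Csmd1 were in L1 LINEs, and 2 of its 7 Seh1 peaks were. Upstream of the gene 1 Seh1 peak (57.0 kb away) and 3 IgG peaks (73.3, 148 and 330 kb away) were also given to it.

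Lrp1b, the longest of the 8 at 2058 kb (minus strand of chromosome 2, 40595290 to 42653598), had the fewest Seh1 peaks for its length. It held 1, at 93.3 kb in intron 1 of 90 and in an RMER1B element, or 0.486 per Mb (0.0123 to 2.71). It held 3 IgG peaks, at 773, 1070 and 1140 kb, or 1.46 per Mb (0.301 to 4.26). Lrp1b and Macrod2 were the 2 genes of the 8 with more IgG than Seh1 peaks inside. The whole Seh1 list is 3.03 times as long as the IgG list. Inside the other 90 protein-coding genes of at least 800 kb, however, the ratio of Seh1 to IgG peaks was only 1.33. In order of Seh1 peaks per Mb the 8 genes ran Wwox, Dab1, Magi2, Csmd1, Immp2l, Fhit, Macrod2 and Lrp1b, and the intervals of neighbours in this order overlapped.

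Together the 8 genes had 4.16 Seh1 peaks per Mb (3.08 to 5.51), and without Wwox 3.13 (2.17 to 4.38). The other 219 protein-coding genes of at least 500 kb had 3.63 (3.36 to 3.92). For IgG the values were 1.27 (0.714 to 2.10), 1.29 without Wwox and 2.07 (1.87 to 2.29). The median gene held 5.5 Seh1 and 1 IgG peaks among the 8, and 2 and 1 among the other 219, which are shorter on average. Among the other 90 protein-coding genes of at least 800 kb the median was 2 for Seh1 and 2 for IgG. Those 90 genes had 2.93 Seh1 peaks per Mb (2.61 to 3.28). Genes closest in length to Wwox held few Seh1 peaks: Adamtsl1 (915 kb) held 3 and Nlgn1, a synaptic adhesion gene (911 kb), held 2, with 5 and 3 IgG peaks. Among length neighbours of the other members, Nrxn3 and Ctnna3 for Fhit and Csmd1, Dlg2 and Lsamp for Macrod2 and Lrp1b, Opcml and Kcnip4 for Dab1, Cdh18 and Grm7 for Immp2l, and Dpp10 for Magi2 held 2 to 5 Seh1 peaks each.

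**Figure D4:**
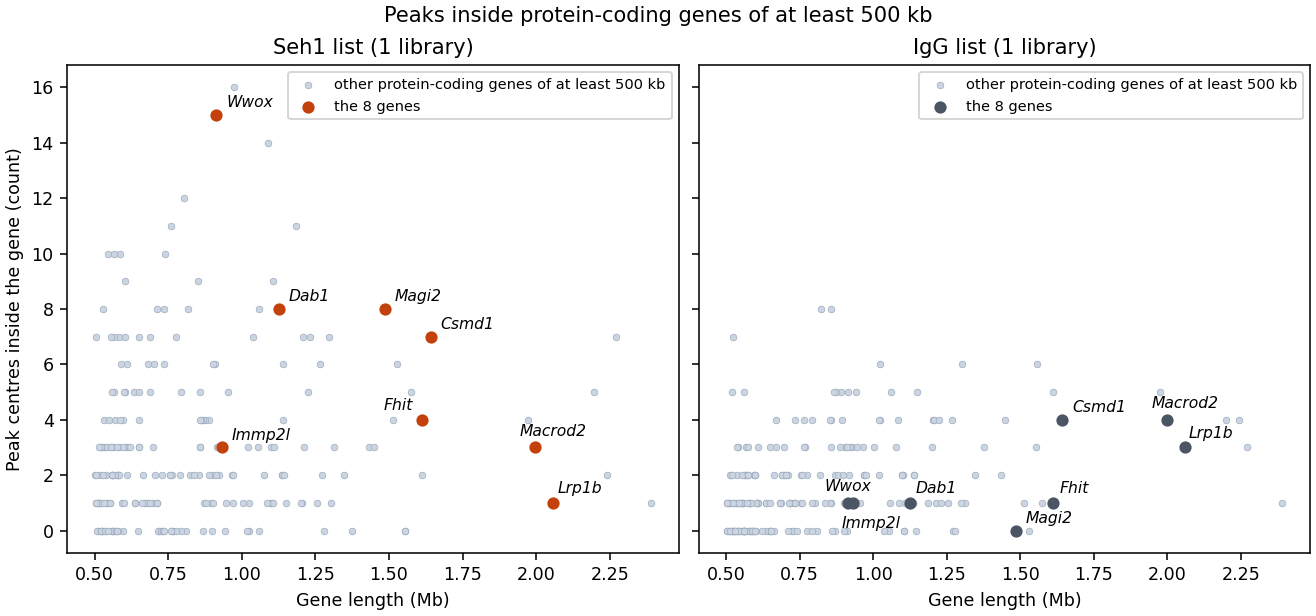
Number of peak centres inside each protein-coding gene of at least 500 kb against gene length in Mb, for Seh1 (left) and IgG (right); coloured points are the 8 genes and grey points the other 219. Wwox, at 15 Seh1 peaks, is exceeded by 1 gene, whereas Lrp1b and Macrod2 lie low for their length.

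The large genes most like Wwox, by the distance between their pairs of Seh1 and IgG peaks per Mb in these 2 libraries, were Sdk1 (16.4 and 2.05), Slit3 (17 and 0) and Camta1, a calmodulin-binding transcription activator gene (15.0 and 1.25). The 5 other large genes with the most Seh1 peaks were Sdk1 with 16, Asic2, an acid-sensing ion channel gene, with 14, Camta1 with 12, and Cdh13 (T-cadherin) and Dlgap2 (a postsynaptic scaffold) with 11 each. Each of these 5 held 1 or 2 IgG peaks. A further 50 large or fragile-site genes were listed by name, 47 of them at least 500 kb long. Of the 50, 44 (88%) held a Seh1 peak and 40 (80%) an IgG peak, a median of 2 each. Over all genes of at least 500 kb, 82.8% and 72.7% did. Sdk1 and Cdh13 held the most Seh1 peaks of that list. Npas3, a neuronal transcription factor gene, and Pde4d, a phosphodiesterase gene, held the most IgG peaks, with 8 and 6, and held 2 and 1 Seh1 peaks.

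Across all protein-coding genes, Seh1 peaks per Mb were lower in longer genes, while IgG peaks per Mb were similar at every length. Genes below 100 kb had 7.97 Seh1 peaks per Mb (7.70 to 8.24), those from 500 to 800 kb had 4.55 (4.09 to 5.04) and those of 800 kb or more, the class of all 8 genes, had 3.06 (2.74 to 3.39). The IgG values of the same classes were 1.93, 1.91 and 2.10. Genes that overlap share peaks in these sums, and the 8 genes are part of their class. Beside the class value of 3.06, Wwox, Dab1, Magi2, Csmd1 and Immp2l had more Seh1 peaks per Mb and Fhit, Macrod2 and Lrp1b had fewer. The intervals of Magi2, Csmd1, Immp2l, Fhit and Macrod2 included 3.06, however, and that of Dab1 began at 3.07. As the counts were known when the genes were picked, this comparison is a description without a test.

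**Figure D5:**
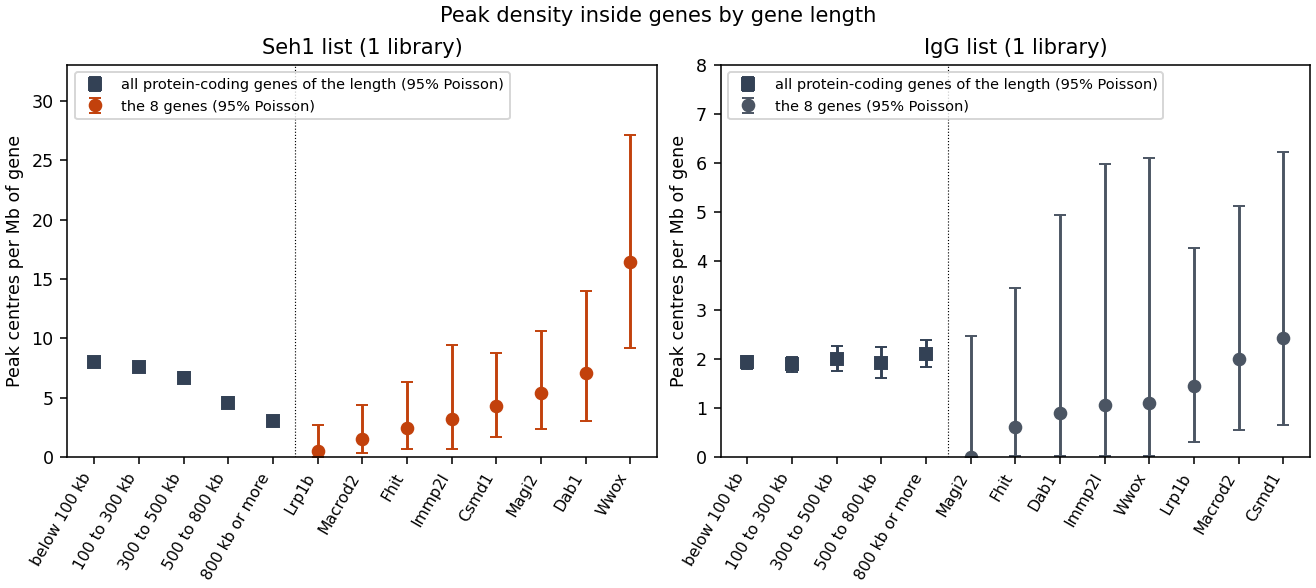
Peak centres per Mb of gene for Seh1 (left) and IgG (right), with 95% exact Poisson intervals; squares are all protein-coding genes by length class and circles are the 8 genes in rising order. The Seh1 squares fall from 7.97 to 3.06 per Mb with gene length while the IgG squares stay between 1.89 and 2.10.

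The repeats at the peaks of the 8 genes are given beside those of the whole lists. A repeat was at the centre of 20 of 49 Seh1 peaks (40.8%, 27.0 to 55.8%) and 9 of 15 IgG peaks (60%, 32.3 to 83.7%), against 39.8% and 52% of the lists. LINEs, all of the L1 family, made up 5 of 49 Seh1 peaks (10.2%, 3.40 to 22.2%) and 8 of 15 IgG peaks (53.3%, 26.6 to 78.7%). LINEs made up 10.6% of the Seh1 list and 31.8% of the IgG list, and 13.7% and 29.2% in the other large genes. All of these shares lie inside the intervals, and Csmd1 alone held 4 of the 8 IgG peaks in LINEs. LTR elements were at 7 of 49 Seh1 peaks (14.3%, 5.94 to 27.2%) and 0 of 15 IgG peaks, which by the 3-count limit allows up to 20%. Their shares of the lists were 17% and 9.58%, and in the other large genes 13.2% and 6.89%, all inside these ranges. RMER1 elements, which make up the class labelled Other, were at 3 of 49 Seh1 peaks (6.12%, 1.28 to 16.9%), 1 each in Macrod2, Immp2l and Lrp1b. The share of that class was 1.52% in the Seh1 list and 2% in the other large genes, both inside this interval. None of the 15 IgG peaks was in an RMER1 element, and 2 of all 5314 IgG peaks were. In the authors' annotation only peaks in introns or between genes could carry a repeat label. No source used here says how reads from repeated sequence were mapped, so the copy marked by a peak in a young repeat is uncertain.

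Positions were measured from the outermost start of each gene, and starts of shorter transcripts within the gene were not considered. Along the genes, 26 of the 49 Seh1 peaks lay before the midpoint and 23 after it (53.1% before, 38.3 to 67.5%). Without Wwox the counts were 15 and 19. The IgG peaks divided 7 and 8. Among peaks that carry a member's name and lie inside it, 22 of 28 Seh1 peaks (78.6%) lay before the midpoint. Naming by the nearest start site itself favours peaks near the start, so nothing is read from that share. Of the 21 Seh1 peaks that had been given to another gene, 4 lay before the midpoint and 17 after it. No Seh1 peak inside or named for these genes overlapped an IgG peak, and the nearest pair was the one in Csmd1. In the whole Seh1 list only 60 of 16113 peaks overlapped an IgG peak, so nothing about these genes is read from their lack of overlap. The median Seh1 peak inside the 8 genes was 363 kb from the nearest IgG peak.

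The sequence beside the genes was set against the genes themselves, using 1 Mb on each side, a comparison added after the data were seen. Wwox had 16.4 Seh1 peaks per Mb inside and 6.50 in its flanks, where 7 peaks lay upstream and 6 downstream. Of the 8 genes 4 were denser in Seh1 peaks than their flanks and 4 were sparser. Dab1, counted as denser, was close to a tie at 7.11 per Mb inside against 7 in the flanks. With flanks of 500 kb the counts were 5 and 3, because the flanks of Magi2 went from 7 to 2 per Mb, against 5.39 inside. Immp2l was then also close to a tie, with 3.22 per Mb inside against 3 in the flanks. Summed over the genes the values were 4.16 per Mb inside and 4.69 in flanks of 1 Mb. Lrp1b was sparser, with 0.486 per Mb inside and 4 in the flanks, 7 of whose 8 peaks were downstream. Magi2 had 12 Seh1 peaks in the Mb downstream and 2 in the Mb upstream. IgG peaks were sparser inside than in the flanks in 7 of the 8 genes and as dense in Macrod2, at 1.27 per Mb inside against 2.06 in all flanks. None of these differences was tested.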

How the data were processed

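Seh1 and IgG peak lists of 1 library each were analysed. The genes and gene lists were chosen with earlier results of these data known. Per the file headers, each list was made against input and annotated with HOMER annotatePeaks.pl on mm10. The submitters' processing notes name Bowtie2 and HOMER, with no version, and the human builds hg18 and hg38. No source used here gives the peak caller or its threshold. Peak heights and depth are unknown, because the authors' score column holds 0 throughout both deposited files.

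Gene ends came from the RefSeq table of GRCm38.p6, the assembly of mm10, after removal of 394 genes that start below 3 Mb on sequences other than chromosome Y. Strand came from the RefSeq promoter table for 5 genes and from the authors' distance column for the others. Named genes follow a fixed rule: the 8 genes, genes that took their peaks, 2 neighbours in length for each, 3 genes most like Wwox, the 5 other large genes with the most Seh1 peaks, and examples from a list of 50. One length neighbour is not reported here. Shares have exact binomial and counts exact Poisson 95% intervals. A count of 0 is also given with a limit of 3 counts over the total. Other assignments, widths, repeats, overlaps and length limits were tried. The counting code (Python 3.11.15, scipy 1.17.1) was tested on simulated data.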

Additional observations from a re-analysis of the deposited data

How the results depend on the processing

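Of 50 recomputed values, for the 8 genes together or for the share of large genes given a peak, 40 stayed within 1.5 times a count or inside the interval of a share or median. Counting by gene ends moved the Seh1 peaks from 31 to 49, the share before the midpoint from 78.6 to 53.1%, and the IgG LTR share from 15.4 to 0%. Keeping peaks without a repeat label left 16 Seh1 and 5 IgG peaks, and keeping those above the minimum width left 8 IgG peaks. Of the IgG peaks that carry a member's name and lie inside it, 4 of 5 (80%) lay before the midpoint. These 2 settings changed that share to 0%, which rests on the Wwox peak alone, and to 100%, which rests on fewer than 5 peaks. Large genes given an IgG peak were 52.8% from 300 kb and 77.6% from 800 kb, in place of 67%. Most of these follow from fewer or other peaks being counted. For single genes 23 of 80 values moved; one, the Seh1 density in the flanks of Magi2 with 500 kb flanks (2 in place of 7 per Mb), was added after seeing the data. No paired analysis was possible because each group has 1 library. Depth is unknown, so a gene with no peak may hold undetected sites.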

Other observations

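The 2 large genes with the most crowded stretch of peaks were different genes in the 2 lists. The shortest stretches holding 5 IgG peaks were 108 kb in Npas3 and 109 kb in Psd3, picked after their values were seen, and these genes held 2 and 0 Seh1 peaks inside. The shortest stretches holding 5 Seh1 peaks were 54.0 kb in Wwox and 56.5 kb in Slit3, which held 1 and 0 IgG peaks. The median of the other 219 large genes was 2 Seh1 peaks and 1 IgG peak. Such low counts are therefore common, and nothing about a separation of the lists is read from them.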
